A study of Rattus norvegicus with 16 samples.

Results

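Liver gene expression of rats fed UAB30 was compared with that of rats fed the same diet without the compound, gene by gene across the transcriptome. The comparison rests on 8 arrays, chosen by their titles from the 16 of the series, 4 of UAB30 and 4 of Control. The animals were Sprague-Dawley females aged 5 weeks, on a Teklad mash (4%) diet. UAB30 was mixed into the diet at 200 ppm and fed for 7 days. Control diet held no added compound, and the labels give no feeding period for it. The other arrays came from livers of rats fed 4-methyl-UAB30 (MeUAB30) at 200 ppm or Targretin (bexarotene) at 150 ppm for 7 days, 4 arrays each. Whether the arrays stand for different animals is not said in the labels; a p-value then covers array-to-array spread only, part of which may be technical. With 1 group per diet, the compound and the batch of feed cannot be told apart.

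UAB30 and its relatives bind the retinoid X receptor (RXR), which binds DNA in pairs with other receptors of the nuclear family, such as those for retinoic acid, fatty acids (PPAR), oxysterols (LXR), bile acids (FXR) and xenobiotics (CAR and PXR). In liver these partners control retinoid breakdown, fatty acid oxidation and synthesis, bile acid synthesis and drug metabolism. The aryl hydrocarbon receptor (AhR) is not an RXR partner: it is a ligand-activated factor that pairs with Arnt and switches on a small battery of genes for oxidation and conjugation of planar aromatic compounds.

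Each probe set on the array carried 1 intensity, and genes were read by a median of 6 probe sets. Of 14839 named genes 12156 were bright enough to be tested. Values below are log2(intensity + 1), and a gene is said to have risen or fallen where the adjusted p from limma's test over all 12156 genes was under 0.05. Of these genes 10 passed in UAB30 against Control (0.0823%), 9 higher (0.074%) and 1 lower (0.00823%). The split was 11 higher and 3 lower with quantile normalization and 29 and 15 with array weights. It was 53 and 53 with the intensity range of each array as a covariate. Without the 4 least correlated arrays, the 1 of each diet with the lowest mean correlation with its group mates, it was 16 and 15. Not all of these stood far from their mates: UAB30 3 was at 0.961 against 0.967 to 0.973, and MeUAB30 1 at 0.963 against 0.965 to 0.973. Leaving out 1 array gave 4 to 36 genes in all. At an unadjusted p under 0.05 there were 952 genes (7.83%), 771 higher (6.34%) and 181 lower (1.49%). The median log2 change of all genes was 0.05, the 5th and 95th percentiles were -0.27 and 0.42, and 61.3% of genes had a positive change. A change of at least 1.5-fold was measured for 184 genes higher and 50 lower, of which 10 passed. The arrays did not all share the same spread of values: Control 3 had the lowest mean correlation with its group mates (0.925) and the narrowest intensity range (99th percentile over median, in log2 units, 6.06 against 6.16 to 6.23 on the other Control arrays), and UAB30 1 had the widest range of its group (6.26 against 6.14 to 6.23).

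**Figure D1:**
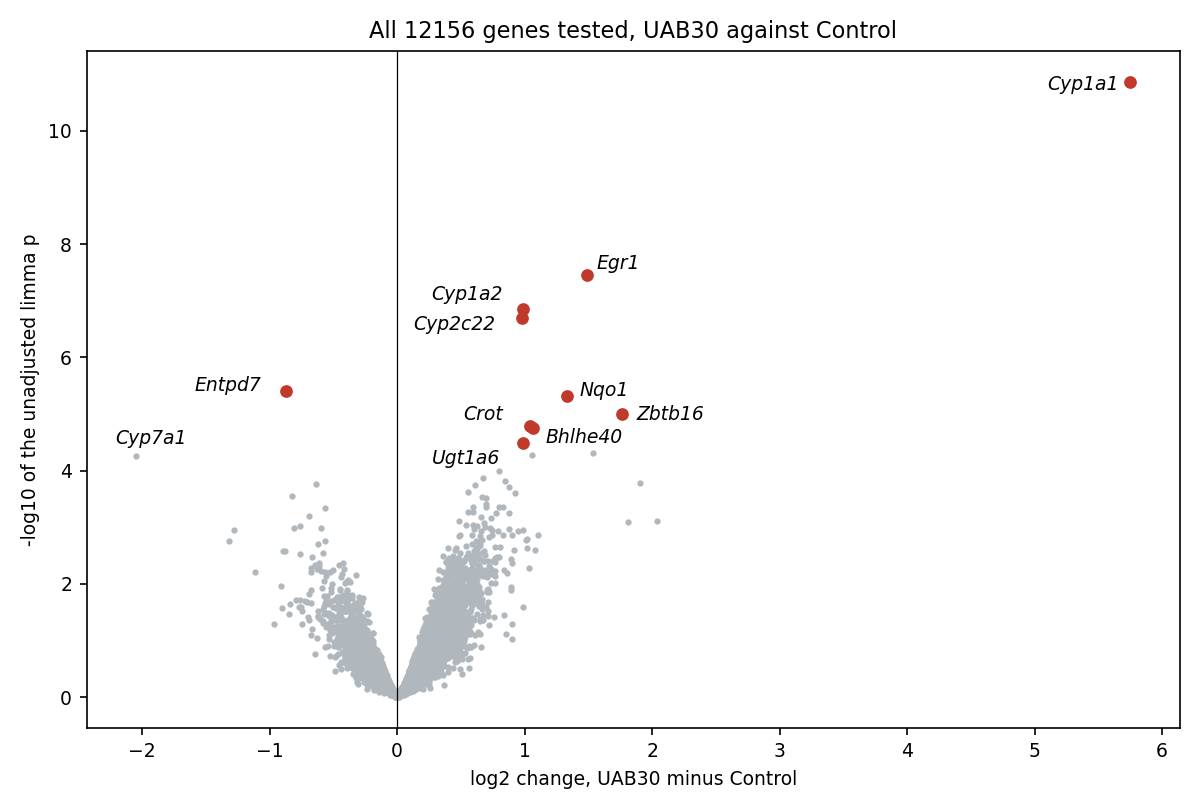
Each point is 1 of the 12156 genes tested, with its log2 change (UAB30 minus Control) on the horizontal axis and the -log10 of its unadjusted limma p on the vertical axis. Red points are the 10 genes that passed, Cyp1a1 lies far to the right at 5.75, and Cyp7a1, at -2.04, is the lowest named gene and did not pass.

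The largest change was in the AhR battery. Cyp1a1, the aryl hydrocarbon hydroxylase and standard readout of AhR, read 11.43, 11.94, 12.01 and 11.98 on UAB30 arrays 1 to 4 and 5.79, 6.28, 5.71 and 6.59 on the Control arrays. The groups were far apart, and 2 of the 4 Control arrays lay under the brightness filter of 6.01, so the size of the fold is uncertain. Cyp1a1 rose by 5.75 on the log2 scale, 53.8-fold (SE 0.37, adjusted p = 1.64e-07, limma), and all 9 of its probe sets passed on their own, with changes between 4.74 and 6.54. Cyp1a2, the constitutive hepatic member of the same family, read 13.07, 13.0, 13.05 and 13.0 with UAB30 against 12.01, 12.2, 11.98 and 11.98 in Control. It was bright in both groups, which did not overlap, and it rose 1.98-fold (log2 change 0.99, SE 0.12, adjusted p = 0.000559). Its UAB30 arrays lay within an SD of 0.03.

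Nqo1, a quinone reductase that both AhR and Nrf2 control, read 9.68, 9.27, 8.85 and 9.22 with UAB30 and 7.84, 8.18, 7.96 and 7.71 in Control, again with no overlap. It rose 2.52-fold (log2 change 1.33, SE 0.20, adjusted p = 0.00978). Ugt1a6, a glucuronosyltransferase of phenols, read 9.24, 9.49, 9.17 and 9.43 against 8.38, 8.63, 7.89 and 8.48 and rose 1.98-fold (log2 change 0.99, SE 0.18, adjusted p = 0.0394). Its 2 probe sets disagreed, with log2 changes of 0.13 and 1.84, and Ugt1a genes share exons, so its value is uncertain. Cyp1b1, the third P450 of the battery, was read by 1 probe set and stood at 7.81, 7.96, 8.09 and 7.77 against 6.3, 6.35, 6.78 and 6.06. These arrays did not overlap, but the change of 1.54 narrowly missed the threshold (adjusted p = 0.0519). Under the 19 alternatives its adjusted p ranged from 0.000129, with the filter at the 50th percentile, to 0.24, without Control 4.

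Of 11 members of the AhR list that were measured 4 rose, none fell, and 10 had a positive change. Their median log2 change was 0.71 beside 0.05 for all genes. In 5 members the UAB30 arrays all lay above the Control arrays, which held for 2.58% of all genes. Gsta2, a glutathione transferase, stood at 11.15 ± 0.17 against 10.44 ± 0.56 (mean ± SD, n = 4; adjusted p = 0.419), and its arrays overlapped. The receptor itself did not pass: Ahr read 9.5 ± 0.11 with UAB30 and 9.01 ± 0.42 in Control (adjusted p = 0.512). Averaged over the 11 genes, each array's deviation from the mean of both groups was 0.47, 0.64, 0.48 and 0.61 for UAB30 and -0.59, -0.37, -0.69 and -0.55 for Control, so no array of either group stood between them. Cyp1a1, with a change of 5.75, weighs most in this average, so it does not show that all 11 genes moved alike. The average without Cyp1a1 was not examined. The wider Nrf2 antioxidant list, which also holds Nqo1, had 1 member that rose of 18 measured and a median change of 0.20.

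The promoters of Nqo1 and Ugt1a6 are shown because both genes rose and each holds the dioxin response core, the short element that AhR and Arnt bind. They come from the RefSeq promoter table (build GRCr8, 250 bases before to 50 after the annotated start), with the core in capitals, read as GCGTG or, on the other strand, as CACGC. The Nqo1 window is chr19:52220218-52220517 on the minus strand and the Ugt1a6 window chr9:96194768-96195067 on the plus strand.
Nqo1: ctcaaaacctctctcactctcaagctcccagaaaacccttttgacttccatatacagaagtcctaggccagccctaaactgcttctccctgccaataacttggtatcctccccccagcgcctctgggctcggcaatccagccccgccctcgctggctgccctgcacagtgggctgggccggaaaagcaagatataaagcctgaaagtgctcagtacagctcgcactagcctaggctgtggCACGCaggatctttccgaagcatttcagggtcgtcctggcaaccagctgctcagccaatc
Ugt1a6: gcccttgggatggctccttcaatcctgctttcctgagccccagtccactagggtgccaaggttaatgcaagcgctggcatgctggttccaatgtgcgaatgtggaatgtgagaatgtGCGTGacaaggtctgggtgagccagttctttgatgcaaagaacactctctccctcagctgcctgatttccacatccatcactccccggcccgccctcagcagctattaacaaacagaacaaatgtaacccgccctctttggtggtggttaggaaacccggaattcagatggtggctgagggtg
The core begins at position -10 from the start in Nqo1 and at -133 in Ugt1a6. The Cyp1b1 window held 2 cores and the Cyp1a2 window 0. The windows of Egr1, Cyp2c22, Entpd7, Crot and Bhlhe40, which also passed, held 0 as well. No window was available for Cyp1a1 or Zbtb16. The same 5 letters, on either strand, occur in 31.1% of all 27457 promoter windows and in 45.5% of the 9958 windows of tested genes, so their presence only describes these windows.

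**Figure D2:**
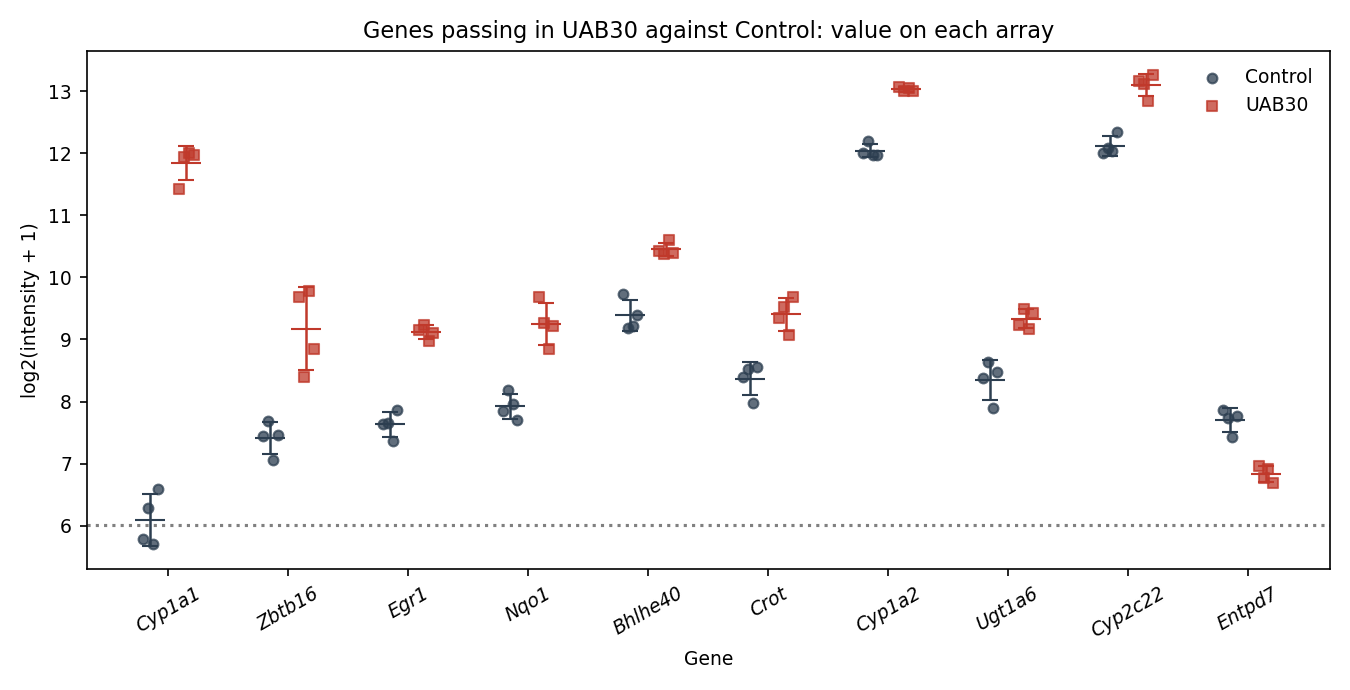
log2(intensity + 1) of the 10 genes that passed, with 1 point per array, a horizontal bar at the mean of 4 arrays and whiskers of 1 SD; the dotted line is the brightness filter at 6.01. The UAB30 and Control arrays do not overlap for any of the 10 genes, Cyp1a1 has the largest gap and Zbtb16 the widest spread within UAB30.

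Transcription factors made up the next group of higher genes. Egr1, a zinc finger factor made within minutes of growth factor or stress signals, read 9.15, 9.24, 8.97 and 9.11 with UAB30 and 7.64, 7.65, 7.37 and 7.86 in Control. The groups were well separated and it rose 2.80-fold (log2 change 1.49, SE 0.16, adjusted p = 0.000215). Of its 14 probe sets 7 passed on their own, and all lay between 0.80 and 2.02. Zbtb16 (PLZF), a zinc finger repressor whose transcription responds to glucocorticoids, read 9.68, 8.4, 9.78 and 8.84 against 7.45, 7.68, 7.06 and 7.46. UAB30 arrays 1 and 3 were the high ones, but all 4 lay above Control, and it rose 3.40-fold (log2 change 1.76, SE 0.29, adjusted p = 0.0176). Bhlhe40 (Dec1), a repressor in the circadian clock, read 10.42, 10.38, 10.61 and 10.4 against 9.74, 9.19, 9.22 and 9.4 and rose 2.09-fold (log2 change 1.06, SE 0.18, adjusted p = 0.0241).

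The Egr1 promoter is shown for its serum response boxes, the element bound by serum response factor: CC, then 6 bases of A or T, then GG. The window is chr18:26736828-26737127 on the plus strand of GRCr8, from the same RefSeq table, with both boxes in capitals.
Egr1: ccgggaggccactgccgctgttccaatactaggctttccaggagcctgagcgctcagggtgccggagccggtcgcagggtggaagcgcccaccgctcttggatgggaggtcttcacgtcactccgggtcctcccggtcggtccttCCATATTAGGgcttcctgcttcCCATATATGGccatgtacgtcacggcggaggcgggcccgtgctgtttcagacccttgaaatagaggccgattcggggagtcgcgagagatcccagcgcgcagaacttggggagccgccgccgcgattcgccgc
The boxes begin at positions -105 and -83. Such a box occurs in 1.64% of all promoter windows and in 1.27% of those of tested genes. The Bhlhe40 window held 1 E-box (CACGTG), the element of clock factors, which occurs in 6.65% of all windows and 9.1% of those of tested genes.

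Among 26 immediate early genes measured, Egr1 rose and no other member passed, 24 had a positive change and the median was 0.24. In 6 of them the UAB30 arrays all lay above the Control arrays, as in 2.58% of all genes: besides Egr1 these were Myc, Klf10, Dusp6, Junb and Ier2 (Dusp6, Junb and Ier2 were named after their values were seen). Myc, a growth factor-induced transcription factor, read 7.85, 7.36, 7.27 and 7.32 against 6.65, 6.33, 6.15 and 6.43 (log2 change 1.06, adjusted p = 0.0519). Klf10 stood at 8.45 ± 0.34 against 7.66 ± 0.12 (adjusted p = 0.371), Dusp6, a phosphatase that switches off ERK, at 10.63 ± 0.26 against 9.83 ± 0.15 (adjusted p = 0.371), and Ier2 at 8.37 ± 0.19 against 7.48 ± 0.36 (adjusted p = 0.487). The list's mean deviation was 0.39, 0.12, 0.15 and 0.06 on the UAB30 arrays and -0.14, -0.24, -0.17 and -0.17 on the Control arrays. The groups did not overlap, and UAB30 1 lay highest. Other signal-dependent genes among the near misses were Spry2, an inhibitor of receptor tyrosine kinase signalling (log2 change 0.70, adjusted p = 0.177), Trib1, a pseudokinase that regulates hepatic lipogenesis (0.88, adjusted p = 0.117), and Rgs16, a G protein regulator in liver (1.91, adjusted p = 0.114). Rgs16 read 11.01, 9.82, 10.91 and 9.88 with UAB30 and 8.95, 8.05, 8.32 and 8.66 in Control, so that, as with Zbtb16, UAB30 arrays 1 and 3 were the high ones.

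The glucocorticoid and fasting list had 19 measured members, of which Zbtb16 rose and 16 were positive, with a median log2 change of 0.49. Arrays lay apart upward in 5 and downward in 1, beside 2.58% and 0.814% of all genes. Its mean deviation was 0.52, -0.14, 0.40 and 0.11 on the UAB30 arrays and -0.07, -0.12, -0.53 and -0.18 on the Control arrays. The groups overlapped through UAB30 2, and UAB30 arrays 1 and 3 were the high ones. Per1, a clock gene that glucocorticoids induce, read 7.7, 7.38, 7.75 and 7.18 against 7.1, 6.91, 6.58 and 6.73 (log2 change 0.67, adjusted p = 0.151). Irs2, an insulin receptor substrate, stood at 8.03 ± 0.25 against 7.54 ± 0.17 (adjusted p = 0.371), and Pdk4, the kinase that turns off pyruvate dehydrogenase, at 10.61 ± 0.12 against 10.23 ± 0.14 (adjusted p = 0.525). Of the 19 clock genes Bhlhe40 rose, 13 were positive and the median was 0.11. Nr1d1 (Rev-erb alpha), the clock repressor that peaks in daytime liver of nocturnal rodents, read 7.0, 6.14, 7.3 and 6.6 with UAB30 and 7.96, 8.21, 8.27 and 7.87 in Control, a change of -1.32 with no overlap that did not pass (adjusted p = 0.297).

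Retinoid and fatty acid genes held 2 more of the higher genes. Cyp2c22, a rat P450 that oxidises retinoic acid, read 13.16, 13.12, 12.85 and 13.26 with UAB30 and 12.0, 12.09, 12.04 and 12.35 in Control. It was among the brightest genes in both groups and rose 1.97-fold (log2 change 0.98, SE 0.12, adjusted p = 0.000613), with 4 of 11 probe sets passing. Probe sets of the Cyp2c family can read more than 1 relative, and in that respect its value is uncertain. Cyp26a1, the main hydroxylase that clears retinoic acid, read 9.37, 9.47, 8.72 and 9.96 against 8.78, 8.73, 8.16 and 9.25; these overlapped and the change of 0.65 did not pass (adjusted p = 0.512). Lrat, which esterifies retinol for storage, stood at 8.25 ± 0.27 against 8.81 ± 0.23 (log2 change -0.56, adjusted p = 0.417) and Aldh1a1, a retinal dehydrogenase, at 9.44 ± 0.30 against 8.68 ± 0.28 (0.76, adjusted p = 0.402). In all, 1 of 16 retinoid genes rose, none fell, 12 were positive and the median was 0.14. Of 15 RXR genes and partners none passed, and Rxra itself read 10.88 ± 0.06 against 10.9 ± 0.08 (adjusted p = 0.974).

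Crot, the peroxisomal enzyme that transfers medium-chain acyl groups to carnitine, read 9.34, 9.53, 9.07 and 9.69 with UAB30 and 8.4, 8.52, 7.98 and 8.56 in Control. It rose 2.06-fold (log2 change 1.04, SE 0.18, adjusted p = 0.0241), and all 18 of its probe sets had positive changes, from 0.34 to 1.72. It was the only member of 20 peroxisomal fatty acid oxidation genes to pass, while 17 were positive, the median was 0.26 (0.17 without Control 3) and the arrays lay apart upward in 5, beside 2.58% of all genes. Of these, Eci2, an enoyl-CoA isomerase, read 11.44, 11.24, 11.39 and 11.42 against 10.79, 11.15, 10.49 and 10.84 (log2 change 0.56, adjusted p = 0.195). Decr2, which reduces dienoyl-CoA in peroxisomes, read 9.8, 9.44, 9.34 and 9.79 against 9.07, 9.2, 8.69 and 8.8 (0.66, adjusted p = 0.214). Control 3 was the lowest Control array in both. The list's mean deviation was 0.15, 0.09, 0.11 and 0.23 on the UAB30 arrays and -0.05, 0.07, -0.41 and -0.19 on the Control arrays. Control 2 lay just under UAB30 2, and the groups did not overlap.

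The mitochondrial side of fatty acid oxidation and ketogenesis gave 22 measured genes, none of which passed; 20 were positive, the median was 0.26 (0.17 without Control 3) and 4 had arrays apart upward, beside 2.58% of all genes. Acaa2, the last thiolase of mitochondrial beta-oxidation, stood at 11.26 ± 0.12 against 10.77 ± 0.15 (log2 change 0.49, adjusted p = 0.264). Cpt1a, the gate of fatty acid entry into mitochondria, read 10.42 ± 0.37 against 10.54 ± 0.35 (adjusted p = 0.917). In fatty acid synthesis 15 of 19 genes were positive and none passed. Thrsp (Spot 14), a lipogenic protein, read 12.5, 12.0, 12.27 and 12.04 against 11.28, 11.55, 11.59 and 11.7 (log2 change 0.68, adjusted p = 0.112), whereas Srebf1, the lipogenic transcription factor, read 9.66 ± 0.34 against 9.68 ± 0.28 (adjusted p = 0.99). Pnpla3, a lipase under SREBP-1c control, stood at 7.13 ± 0.17 against 6.93 ± 0.17 (adjusted p = 0.891). The LXR sterol transporters Abcg5 (8.24 ± 0.96 against 8.1 ± 0.44, adjusted p = 0.954) and Abcg8 (7.19 ± 0.81 against 7.41 ± 0.50, adjusted p = 0.903) varied more within the UAB30 group than between the groups.

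Cyp2b2, the classical target of CAR, had the largest positive change after Cyp1a1 but was read by 1 probe set, which may also read its close relatives. It read 9.62, 9.45, 10.3 and 10.98 with UAB30 and 8.03, 8.15, 6.89 and 9.12 in Control, a change of 2.04 with no overlap and a wide spread in both groups (SE 0.50, adjusted p = 0.236). None of 23 CAR and PXR genes passed, 17 were positive and the median was 0.10. Abcc3, an exporter of conjugates, stood at 8.18 ± 0.11 against 7.74 ± 0.32 (adjusted p = 0.512).

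Entpd7, a nucleoside triphosphate diphosphohydrolase of intracellular membranes, was the gene that fell. It read 6.96, 6.77, 6.91 and 6.69 with UAB30 and 7.87, 7.74, 7.43 and 7.76 in Control, and was 1.83-fold lower (log2 change -0.87, SE 0.13, adjusted p = 0.00961). None of its 6 probe sets passed on its own, but all were negative, between -1.19 and -0.50. Cyp7a1, whose hydroxylation of cholesterol sets the pace of bile acid synthesis, had the largest negative change. It read 8.89, 9.27, 9.19 and 8.95 against 11.23, 11.77, 10.65 and 10.85; the groups lay far apart, yet the adjusted p was 0.0519 (log2 change -2.04, SE 0.39), and 1 of its 7 probe sets passed. Under the 19 alternatives its adjusted p ranged from 0.00211, with only these 8 arrays in the fit, to 0.277, without UAB30 1. Cyp8b1, which sets the share of cholic acid, read 11.11, 10.63, 11.66 and 9.94 against 12.09, 12.35, 12.03 and 11.97 (log2 change -1.28, adjusted p = 0.245), with UAB30 4 the lowest. Nr0b2 (SHP), the repressor of both enzymes, was near the filter and read 6.76 ± 0.21 against 6.93 ± 0.14 (adjusted p = 0.865). Cyp27a1, which starts the alternative pathway, stood at 11.65 ± 0.14 against 11.18 ± 0.27 (0.47, adjusted p = 0.371). Of 24 bile acid genes none passed, 9 were positive, the median was -0.06, and 3 had arrays apart downward, a pattern that 0.814% of all genes showed.

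**Figure D3:**
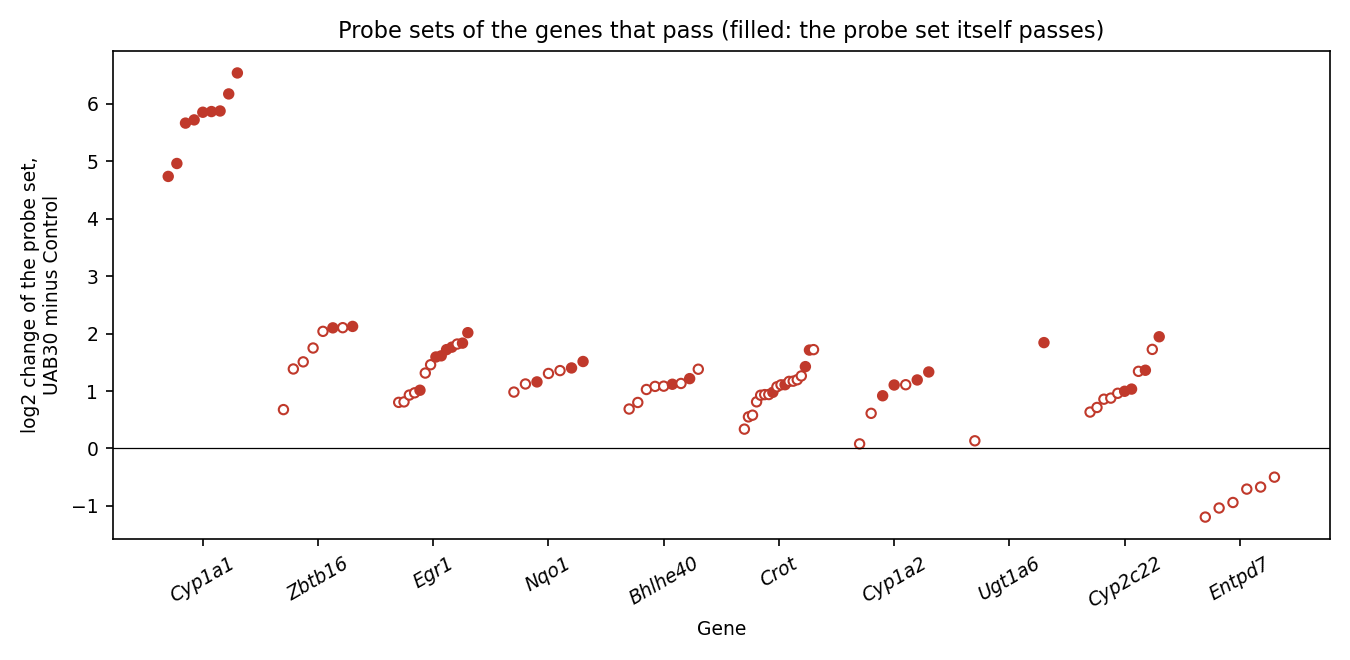
log2 change (UAB30 minus Control) of each kept probe set of the 10 genes that passed, ordered within a gene; filled points passed on their own over 103692 probe sets. All probe sets of Cyp1a1 are filled, the pair of Ugt1a6 lies far apart at 0.13 and 1.84, and all 6 of Entpd7 lie below 0 without passing.

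Tested 1 probe set at a time, 37 of 103692 passed (0.0357%), 36 higher (0.0347%) and 1 lower (0.000964%). Of these 36 lay in genes that passed, and the remaining one was that of Cyp7a1. The shares differed between genes: 9 of 9 for Cyp1a1, 7 of 14 for Egr1, 4 of 7 for Cyp1a2, 4 of 11 for Cyp2c22, 4 of 18 for Crot, 3 of 7 for Nqo1, 2 of 9 for Bhlhe40, 2 of 8 for Zbtb16 and 1 of 2 for Ugt1a6. In Cyp1a2 the changes ran from 0.08 to 1.33 among probe sets of 1 gene, and in Zbtb16 from 0.68 to 2.13.

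Among genes of protein folding in the endoplasmic reticulum (ER), more had a negative than a positive change. Of 24 measured none passed, 16 were negative, the median was -0.14 (-0.08 without Control 2) and 4 had arrays apart downward, beside 0.814% of all genes: Hyou1, Hspa5, Dnajb9 and Pdia3. None had arrays apart upward, beside 2.58% of all genes. Hyou1, a large Hsp70-like chaperone of the ER, read 9.87, 9.85, 9.72 and 9.79 with UAB30 and 10.53, 10.45, 10.24 and 10.56 in Control (log2 change -0.64, adjusted p = 0.114), and all of its 28 probe sets were negative. Hspa5 (BiP), the main ER Hsp70, read 12.45, 12.41, 12.48 and 12.52 against 12.83, 12.8, 12.64 and 12.88 (-0.32, adjusted p = 0.411). Dnajb9, an ER co-chaperone, stood at 8.75 ± 0.17 against 9.19 ± 0.28 (adjusted p = 0.419) and Pdia3, a disulfide isomerase, at 11.93 ± 0.06 against 12.15 ± 0.06 (-0.22, adjusted p = 0.587; named after its values were seen). Gmppb, which makes GDP-mannose for glycosylation, is not on this list and was named as a near miss by its p. It read 7.09, 6.86, 6.61 and 6.96 against 7.88, 7.72, 7.33 and 7.87 (-0.82, adjusted p = 0.147). The ER list's mean deviation was 0.05, -0.09, -0.11 and -0.05 on the UAB30 arrays and 0.04, 0.22, -0.09 and 0.03 on the Control arrays, so the groups overlapped through UAB30 1 and Control 3. With the intensity range of each array as a covariate, 3 of the 24 fell, with a median of -0.22. These were Hyou1, Hspa5 and Eif2ak3, an ER stress kinase named after its values were seen. Without the 4 least correlated arrays (UAB30 3, Control 3 and 1 each of MeUAB30 and Targretin) 2 fell, with a median of -0.16.

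**Figure D4:**
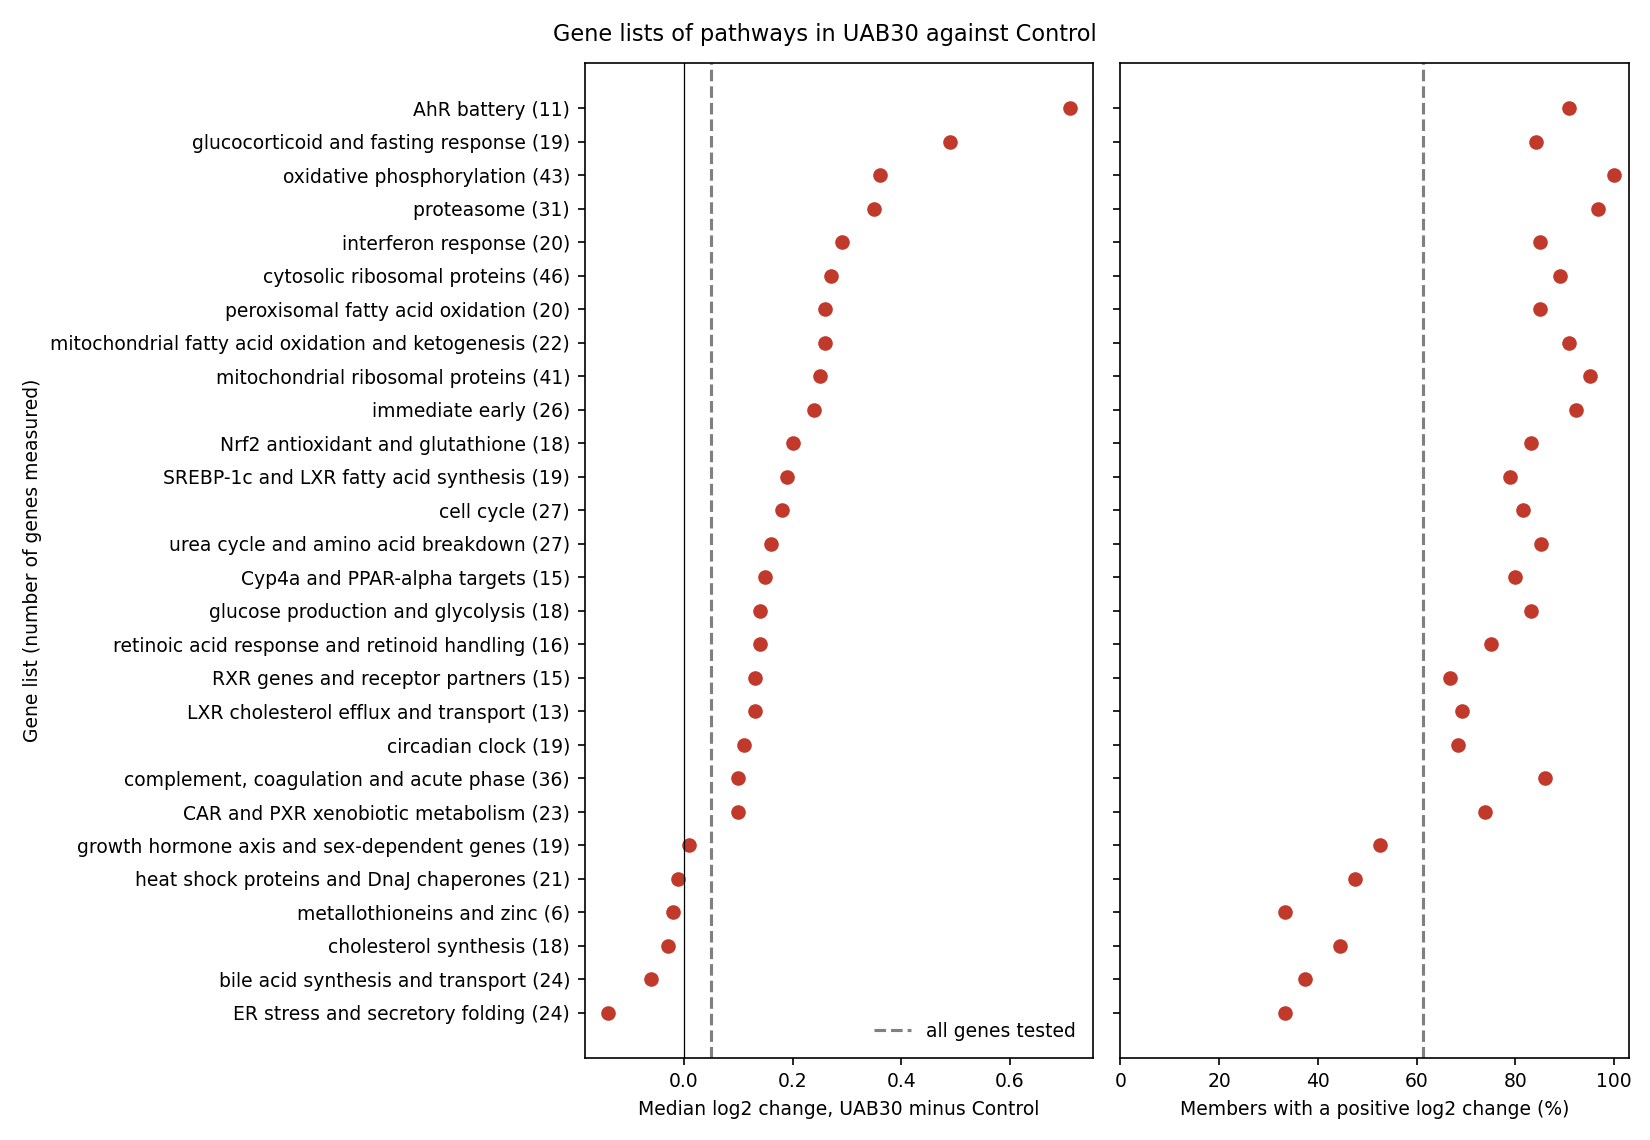
Median log2 change (left) and share of members with a positive change (right) for each pathway list, with the number of genes measured in brackets; dashed lines mark all genes tested, at 0.05 and 61.3%. The AhR battery lies highest at 0.71, all 43 oxidative phosphorylation genes are positive, and the ER folding list lies lowest at -0.14.

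Several large lists of housekeeping genes had a small positive median change, with no member passing. All 43 measured subunits of oxidative phosphorylation had a positive change, with a median of 0.36, 21 higher at an unadjusted p under 0.05 (6.34% of all genes were) and none passing. Atp5pf, a subunit of the ATP synthase stalk, had the smallest p of the list and read 11.81, 11.18, 11.63 and 11.39 against 10.36, 11.35, 10.78 and 10.43 (log2 change 0.77, adjusted p = 0.195); Control 2 overlapped the UAB30 arrays. Of 31 proteasome subunits 30 were positive (median 0.35), of 41 mitochondrial ribosomal proteins 39 (median 0.25) and of 46 cytosolic ribosomal proteins 41 (median 0.27). Arrays lay apart upward in 2 (4.65%), 1 (3.23%), 2 (4.88%) and 0 of these lists' members, beside 2.58% of all genes, and downward in none. Without UAB30 1 the medians were 0.23 for the proteasome, 0.16 for the mitochondrial and 0.13 for the cytosolic ribosome. Psma2, a proteasome core subunit, read 10.4, 9.6, 9.27 and 9.81 against 8.72, 9.56, 8.79 and 8.4 (0.90, adjusted p = 0.264).

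Within each group the level of these lists differed between arrays. The mean deviation of the oxidative phosphorylation genes was 0.49, 0.03, 0.04 and 0.23 on the UAB30 arrays and -0.27, 0.14, -0.35 and -0.32 on the Control arrays. That of the proteasome was 0.47, 0.06, -0.09 and 0.27 against -0.19, 0.16, -0.40 and -0.27, and that of the cytosolic ribosome 0.44, -0.07, -0.06 and 0.20 against -0.12, 0.11, -0.28 and -0.21. In these lists, the mitochondrial ribosome and the Kupffer cell markers, 5 of 5, UAB30 1 was the highest of its group, Control 2 the highest and Control 3 the lowest of theirs. Control 3 was the lowest Control array in 35 of all 38 lists. Averaged over all 12156 genes, UAB30 1 and Control 2 were also the highest of their groups and Control 3 the lowest. Those means were 0.09, 0.01, -0.04 and 0.06 on the UAB30 arrays and 0.02, 0.04, -0.13 and -0.05 on the Control arrays. This order was therefore not particular to these lists. With the intensity range as a covariate the median changes were 0.28 for oxidative phosphorylation (41 of 43 positive), 0.25 for the proteasome (30 of 31), 0.16 for the mitochondrial ribosome (35 of 41) and 0.18 for the cytosolic ribosome (37 of 46), beside 0.03 for all genes. Without the 4 least correlated arrays they were 0.43 for oxidative phosphorylation, 0.35 for the proteasome and 0.28 for the cytosolic ribosome.

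**Figure D5:**
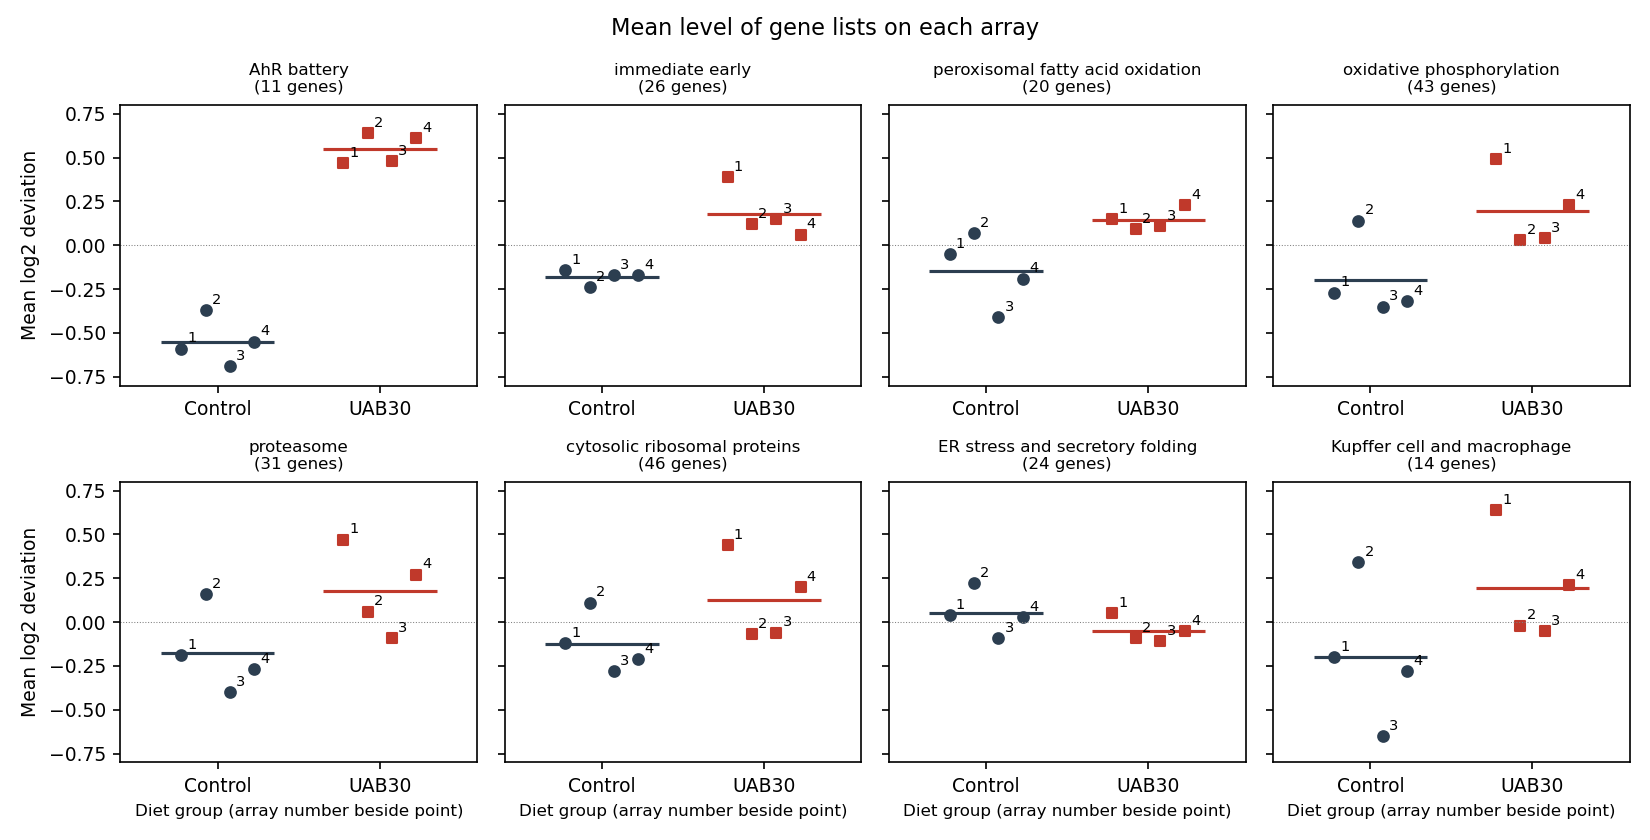
Mean log2 deviation of the genes of 8 lists on each array from their mean over both groups; numbers beside points are the array numbers and bars the group means. The AhR battery, immediate early and, narrowly, peroxisomal lists do not overlap between the groups and the other 5 do, and UAB30 1, Control 2 and Control 3 lie at the ends of their groups in the lower row and in oxidative phosphorylation.

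Markers of cell types were read in the same way. Albumin (Alb) stood at 14.07 with UAB30 and 14.08 in Control and apolipoprotein B (Apob) at 13.13 and 13.25. Both were bright, and both were named after their values were seen. Hepatocyte markers had 4 of 10 positive and a median change of -0.01. Arrays lay apart downward in 1 (10%), Hnf4a, at 11.46 ± 0.07 against 11.85 ± 0.14 (adjusted p = 0.428), with all 12 probe sets negative. Pericentral genes, which include Cyp1a2 and Cyp7a1, had 9 of 13 positive and a median of 0.07. Their arrays lay apart upward in 2 (15.4%) and downward in 3 (23.1%), beside 2.58% and 0.814% of all genes. Periportal genes had 11 of 14 positive and a median of 0.14, with arrays apart upward in 1 (7.14%). Tbx3, a pericentral transcription factor, read 7.55, 7.61, 7.36 and 7.71 against 8.28, 8.85, 7.96 and 8.19 (log2 change -0.76, adjusted p = 0.245). Kupffer cell and macrophage markers were positive in 13 of 14 with a median of 0.46, and none passed or had arrays apart; without UAB30 1 the median was 0.23, with 12 of 14 positive. Their mean deviation ranged from -0.05 to 0.64 on the UAB30 arrays and from -0.65 to 0.34 on the Control arrays. Clec4f, the rat Kupffer cell lectin, stood at 10.05 ± 0.23 against 9.63 ± 0.30 (adjusted p = 0.602). Sinusoidal endothelial (9 measured), stellate (11) and cholangiocyte (7) markers had median changes of 0.04, 0.02 and 0, with none passing. In bulk liver a change in the number of such cells and in the RNA of each cannot be told apart, and the part of these cells in the other results was not tested.

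UAB30 and MeUAB30, which carries an added methyl group, were fed at the same dose and time. The genes above were compared between them, with adjustment over all 12156 genes. In that contrast 169 genes passed (1.39%), 84 higher with UAB30 (0.691%) and 85 lower (0.699%). Of the 10 genes that passed against Control 5 differed between the analogs, 4 of them higher with UAB30. Those 10 were chosen with the same UAB30 arrays, which favours the direction they had against Control. These counts are therefore not independent of that choice. Cyp1a1 lay under the filter on all 4 MeUAB30 arrays (mean 5.5), so its difference is given as a bound against the filter level: it was higher with UAB30 by at least 5.83 on the log2 scale (adjusted p = 3.29e-08). Cyp1a2 was at 11.16 ± 0.19 with MeUAB30 and higher with UAB30 by 1.87 (95% interval 1.62 to 2.12, adjusted p = 4.41e-08). Ugt1a6 was higher by 1.63 (1.25 to 2.01, adjusted p = 4.75e-05) and Zbtb16 by 1.37 (0.76 to 1.98, adjusted p = 0.0212). Cyp1b1, which missed the threshold against Control, was higher with UAB30 than with MeUAB30 by 1.6 (adjusted p = 0.0063). Crot went the other way, with MeUAB30 at 10.23 ± 0.29 and a difference of -0.83 (-1.21 to -0.45, adjusted p = 0.0242).

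For the remaining 5 genes no difference was detected. Egr1 stood at 9.06 ± 0.28 with MeUAB30, a difference of 0.06 (-0.28 to 0.40, adjusted p = 0.951), and Nqo1 at 9.5 ± 0.21, a difference of -0.24 (-0.66 to 0.18, adjusted p = 0.753). The interval was -0.69 to 0.07 for Bhlhe40 (adjusted p = 0.574). It left out 0 for Cyp2c22, at -0.63 to -0.13 (adjusted p = 0.156), and for Entpd7, at -0.72 to -0.18 (adjusted p = 0.122), although neither passed over all genes. Genes of retinoid and bile acid control that did not pass against Control differed between the analogs: the log2 difference, UAB30 minus MeUAB30, was -3.57 for Cyp26a1 (adjusted p = 1.18e-07), -1.57 for Nr0b2 (adjusted p = 5.14e-05) and -1.39 for Lrat (adjusted p = 0.000334), but 3.78 for Cyp8b1 (adjusted p = 2.88e-06). Cyp7a1 was at 9.36 ± 1.11 with MeUAB30, a difference of -0.28 whose interval of -1.10 to 0.54 is wide (adjusted p = 0.878).

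Targretin was fed at a lower dose, so its levels are given beside those of UAB30 without a comparison. Cyp1a1 stood at 7.01 ± 1.06 with Targretin and 11.84 ± 0.27 with UAB30, Cyp1a2 at 11.86 ± 0.13 and 13.03 ± 0.03, Egr1 at 7.66 ± 0.27 and 9.12 ± 0.11, and Nqo1 at 8.13 ± 0.44 and 9.26 ± 0.34. Cyp2c22 stood at 13.45 ± 0.09 with Targretin and 13.1 ± 0.18 with UAB30, and Crot at 9.83 ± 0.22 and 9.41 ± 0.27. Pnpla3 stood at 11.5 ± 0.55 with Targretin and 7.13 ± 0.17 with UAB30, and Nr0b2 at 8.19 ± 0.24 and 6.76 ± 0.21. Cyp7a1 stood at 11.43 ± 0.38 with Targretin, at 9.08 ± 0.18 with UAB30 and at 11.12 ± 0.49 in Control.

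The remaining near misses with arrays apart were mixed. On the higher side were RGD1560872 (1 probe set, log2 change 0.80, adjusted p = 0.0868), the cytosolic malate dehydrogenase Mdh1 (0.56, adjusted p = 0.138) and the olfactory receptor Or8g37c (1 probe set, 0.61, adjusted p = 0.114), whose change was -0.03 when dim probe sets were kept. On the lower side were the ubiquitin ligase Trim25 (-0.56, adjusted p = 0.177), the receptor Edar (-0.69, adjusted p = 0.214), Tmbim7 (-0.60, adjusted p = 0.245), the potassium channel Kcnb2 (-0.81, adjusted p = 0.245), which was dim with UAB30, and Plac9 (-0.56, adjusted p = 0.296).

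The calls did not all rest equally on every array. Cyp1a1, Egr1, Cyp1a2 and Cyp2c22 passed in each of 19 alternative fits, Entpd7 and Nqo1 in 16, Zbtb16 in 13, Crot in 12, Bhlhe40 in 11 and Ugt1a6 in 10. In the fits that left out 1 array, the number of genes passing ranged from 4 without Control 4 to 36 without Control 2. Nqo1 lost its call without UAB30 1 (adjusted p = 0.0609), without Control 1 (0.0506) and without Control 4 (0.0606), and Entpd7 without UAB30 4 (0.0543), Control 1 (0.0506) or Control 4 (0.0583). Zbtb16 lost it without UAB30 1 (0.0938), UAB30 3 (0.0707) or any of Control 1, 3 and 4 (0.0641, 0.075 and 0.0635). Crot, Bhlhe40 and Ugt1a6 lost it without most single arrays, with adjusted p up to 0.125, 0.0967 and 0.149. Their log2 changes without any single array lay between 0.92 and 1.16 for Crot, 1 and 1.18 for Bhlhe40 and 0.84 and 1.09 for Ugt1a6.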

How the data were processed

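Liver RNA of 16 arrays, 4 per diet, was measured on Affymetrix whole-transcript exon arrays. The authors deposited 1 linear intensity per probe set for 887828 probe sets, with no missing value. The submitters' processing notes name rn4, but how probes were summarised, corrected for background and normalized is not given in the sources used. The platform annotation gave 177688 probe sets exactly 1 symbol, 2920 several and 707220 none. Of 14903 symbols 11393 were current RefSeq names and 3454 were updated through synonyms.

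The transform was log2(intensity + 1). The added 1 understates changes of dim genes, though only slightly at the filter, an intensity of 63.6. Probe sets with a mean at or above the 75th percentile (6.01) were kept, 103692 in all, and summarised per gene by median polish. limma 3.58.1 fitted a mean per diet to the 16 arrays in R 4.3.3, with Benjamini-Hochberg adjustment over 12156 genes at 0.05. All adjusted p-values come from it. The number of arrays limits precision: the median SE of a log2 difference was 0.166. The members, the 38 gene lists and the alternatives were chosen with earlier results of these data known.

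Named genes were all that passed, the 10 higher and 10 lower near misses with the smallest p whose arrays did not overlap, the 3 members of each list with the smallest p, and 16 fixed genes. Other genes were named after their values were seen: Dusp6, Junb, Ier2, Pdia3, Eif2ak3, Pdia5, Alb, Apob, Ech1 and Heatr1.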

Additional observations from a re-analysis of the deposited data

Results flagged for a closer look

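Among 248 groups of 4 arrays that were tested 18 had a highest or lowest array standing apart by Dixon's ratio at its 95% critical value, and chance alone flags about 1 group in 20. In the UAB30 group, Cyp1a1 was low on array 1 (11.43 against 11.94 to 12.01), Bhlhe40 high on array 3 (10.61 against 10.38 to 10.42) and Myc high on array 1 (7.85 against 7.27 to 7.36). Eno1, a glycolytic enolase, was low on UAB30 2 (10.45 against 10.64 to 10.67) and Pdia3 low on UAB30 3 (11.84 against 11.95 to 11.96). On Control 2, Cyp1a2 (12.2), RGD1560872 (8.04), Psma5 of the proteasome (9.15) and Ech1, a dienoyl-CoA isomerase (9.39), stood above the other Control arrays, whose highest values were 12.01, 7.4, 8.49 and 8.73. On Control 3, Pdk4 (10.02), Dusp6 (9.6), Pdia5 (7.73) and Heatr1 (6.9) stood below the others, whose lowest values were 10.28, 9.89, 8.35 and 7.66. List means on Control 3 were low for the circadian clock (-0.26), Cyp4a and PPAR-alpha targets (-0.24), fatty acid synthesis (-0.32) and sinusoidal endothelial markers (-0.4), and the oxidative phosphorylation list was high on Control 2 (0.14 against -0.35 to -0.27 on the others).

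Outside the named genes, 118265 probe sets bright enough to be kept did not have exactly 1 gene symbol. Of these 9 passed in UAB30 against Control, 8 higher and 1 lower, with log2 changes from -2.12 to 1.96. Their genes are not named here.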

How the results depend on the processing

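The number of genes passing against Control, 10 as reported, stayed within 1.5 times under quantile normalization (14), a pseudocount of 16 (13), the 50th percentile filter (11), no filter (10), the mean of probe sets (10) and only the 8 arrays compared (13). The share of higher calls was 90% as reported, 78.6% with quantile normalization and 65.9% with array weights. With arrays centred on their median 28 genes passed, and with array weights 44. The intensity range as a covariate gave 106 (50% higher, all 10 reported genes among them). Fitting without the 4 least correlated arrays gave 31 (51.6% higher, 8 of the 10). Leaving out 1 array gave 4 to 36. Probe sets, 37 as reported, numbered 93, 118 and 148 with centring, weights and the covariate, and 20 to 47 without 1 array. Genes passing between UAB30 and MeUAB30, 169 as reported, numbered 457, 1337, 726 and 338 in those 4 settings and 86 to 166 without 1 array. The causes were not tested. Or8g37c turned from 0.61 to -0.03 with no filter, the only gene of those tried to change sign. Rxra, Srebf1, Cpt1a, Abcg5, Abcg8, Nr0b2 and Pnpla3, whose changes were small, were not among those tried. With the replicate number as a block 11 genes, 29 probe sets and, between the analogs, 136 genes passed. Of the 10 genes 9 kept their call. Whether the numbers pair the arrays is not said in the labels. Deviations of same-numbered UAB30 and Control arrays correlated at 0.05, -0.10, 0.57 and 0.23, too few values to decide it. Background correction could not be varied on processed intensities. Genes near the filter, such as Cyp1a1 in Control, have uncertain folds.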

Other observations

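With the intensity range of each array as a covariate 106 genes passed in UAB30 against Control, 53 higher and 53 lower. The genes below did not pass without the covariate, and Pdia5 and Ech1 were named after their values were seen. Pdia5, a disulfide isomerase of the ER, had a log2 change of -0.77 with the covariate (adjusted p = 0.0248) and -0.67 without it (adjusted p = 0.4). Mdh1 had a change of 0.51 with the covariate (adjusted p = 0.0121) and 0.56 without it (adjusted p = 0.138). Ech1 had a change of 0.65 with the covariate (adjusted p = 0.0339) and 0.73 without it (adjusted p = 0.245).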
